A study of Mus musculus with 6 samples.

Results

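The genes described here are the members of the mouse Clec family, which encode proteins with a C-type lectin fold. They were taken by name: every probe set annotated with a single gene symbol made of Clec, a number, a letter and at most a further number was a member. This gave 31 genes, each with 1 probe set, among 22180 named genes on the array. The RNA came from cultured lung fibroblasts of wild-type male C57BL/6 mice, 8 weeks of age, grown for no more than 3 passages. A total of 3 wells received vehicle and 3 received purmorphamine, written as 5um in the labels and read as 5 µM, for 24 h, with 1 array per well. Purmorphamine is a small-molecule agonist of Smoothened, which relays Hedgehog signals into the cell. Per the labels, freshly prepared cells were divided over the wells, and no label says how many mice they came from. The p-values therefore cover well-to-well spread only, and that spread may be technical.

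C-type lectins are cell surface or secreted proteins named for a fold that in many of them binds sugars with the help of calcium. On macrophages and dendritic cells they are pattern recognition receptors. The activating kind, such as Dectin-1, signals through the kinase Syk and the adaptor CARD9, either by a tyrosine motif in its own tail or by pairing with the Fc receptor gamma chain or DAP12. The inhibitory kind, such as DCIR and MICL, carries a tail motif that recruits phosphatases. Other members are ligands of natural killer cell receptors, endothelial proteins or secreted matrix proteins.

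In the purmorphamine wells 6 of 7 measured genes listed as activating receptors were higher, among them Mincle and Dectin-1. The 6 include Clec1b, which was below the background limit described below in both groups. These role lists were chosen with earlier results of these data known. The MICL gene and 3 of 4 DCIR family genes were lower. Clec4e (Mincle) rose 1.79-fold, Clec4d (MCL) 1.51-fold, Clec7a (Dectin-1) 1.41-fold, Clec5a (MDL-1) 1.36-fold and Clec4n (Dectin-2) 1.20-fold. Clec4a2 (DCIR1) fell 1.92-fold, Clec4a3 (DCIR3) 1.45-fold and Clec12a (MICL) 1.37-fold. Clec4a1 (DCIR4) was lower by an estimated 2.38-fold or more, a bound that does not include sampling error. In the limma fit over all named genes, with Benjamini-Hochberg adjustment and an adjusted p under 0.05, 7 of the 31 members rose and 4 fell, where 7.18% of all genes rose and 7.16% fell. Leaving out any 1 array gave 4 to 6 rises and 4 to 5 falls. The lowest number of rises, 4, was found without vehicle replicate 1 and without purmorphamine replicate 2. At a fold of at least 1.5, 2 members rose (Clec4e and Clec4d), against 0.965% of all genes, and 2 fell (Clec4a1 and Clec4a2), against 1.4%. The median difference of the members was -0.05 log2 units, and that of all genes tested -0.01.

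The files give no detection calls, so a background limit was set on each array from 1425 olfactory, vomeronasal and taste receptor genes, which stand in for genes that lung cells do not express. The limit is their 95th percentile, so 5% of them lie above it by construction, and it lay between 6.16 and 6.28 log2 units over the 6 arrays. A gene counted as above background in a group when all 3 arrays exceeded their own limits. By this measure 17 of the 31 members were above background in at least 1 group, where 61.4% of all named genes were. Among genes whose mean over all 6 arrays lay above the limit, 10.9% rose and 10.5% fell.

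The 17 members above background included the activating receptor genes Clec4e, Clec4d, Clec7a, Clec5a and Clec4n, and the genes Clec4a1, Clec4a2, Clec4a3 and Clec12a. The rest of the 17 were the Kupffer cell lectin gene Clec4f, the genes Clec2d, Clec2i and Clec2m, and Clec14a, Clec3b, Clec18a and Clec16a. Of the 17, Clec4a1 was above the limit on all vehicle arrays and on none of the purmorphamine arrays. Clec4f was above it on 3 vehicle and 2 purmorphamine arrays. The 14 others were Clec1a, Clec1b, Clec2e, Clec2g, Clec2h, Clec2l, Clec3a, Clec4a4, Clec4b1, Clec4b2, Clec4g, Clec10a, Clec11a and Clec12b. A signal under the limit does not show that a transcript is absent. With the 99th percentile as the limit, 11 members were above background: Clec2i, Clec2m, Clec3b, Clec4f, Clec14a and Clec18a were no longer among them.

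**Figure D1:**
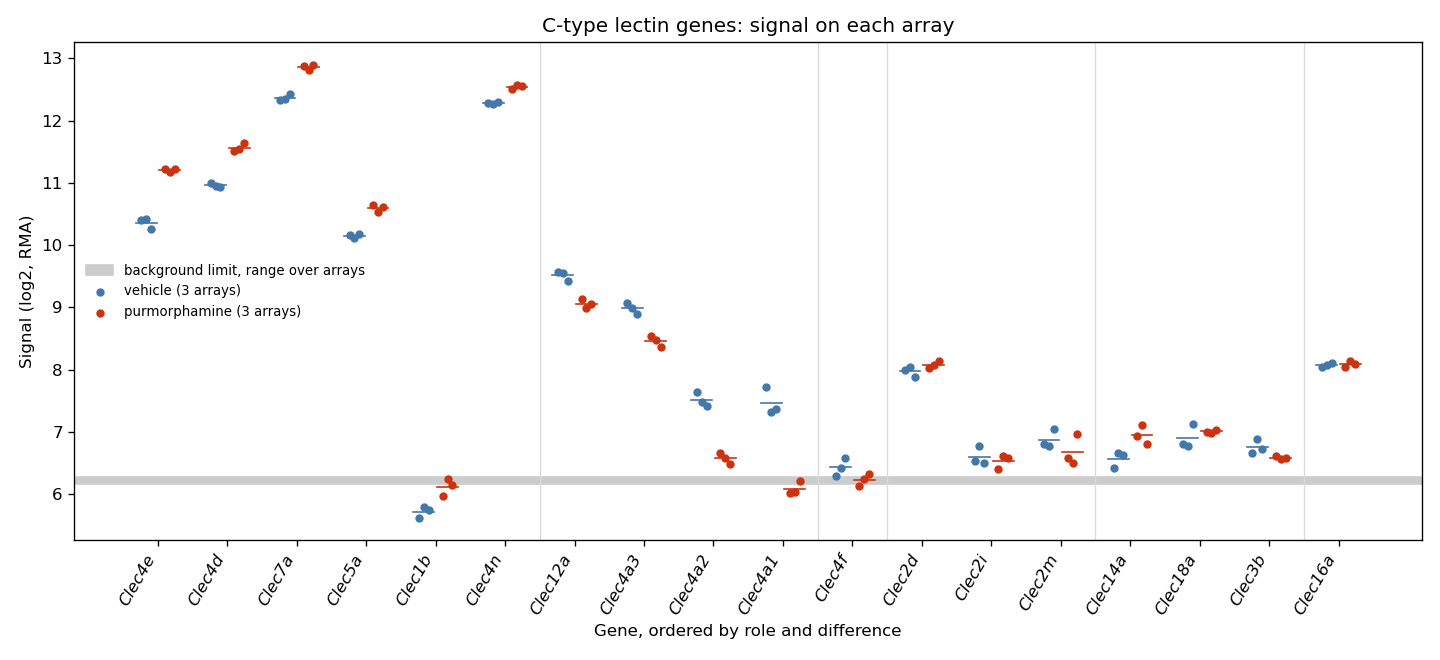
Log2 signal on each of the 6 arrays for the 17 members above background and for Clec1b, with 3 vehicle and 3 purmorphamine arrays per gene as points, group means as short lines, and the range of the background limit over the arrays as a grey band. Points of the groups are apart for the activating receptor genes on the left, where purmorphamine is higher, and for Clec12a, Clec4a3, Clec4a2 and Clec4a1, where it is lower. Signals of different genes come from different probes and are not compared with each other.

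Mincle, the product of Clec4e, binds the mycobacterial cord factor trehalose dimycolate and the nuclear protein SAP130 released by dying cells. The log2 signal of Clec4e was 10.40, 10.41 and 10.26 with vehicle and 11.22, 11.17 and 11.22 with purmorphamine. Every treated array was above every vehicle array. Clec4e rose by 0.84 log2 units (SE 0.06, 95% interval 0.70 to 0.99, n = 3 per group, limma adjusted p = 3.65e-04). Its genomic neighbour Clec4d encodes MCL, a receptor of the same glycolipid that is known to form a complex with Mincle. Clec4d gave 11.01, 10.95 and 10.93 with vehicle and 11.50, 11.54 and 11.63 with purmorphamine. The groups did not overlap, and Clec4d rose by 0.60 (SE 0.06, limma adjusted p = 0.0010).

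Clec7a encodes Dectin-1, the receptor of fungal beta-glucans, which signals through a tyrosine motif of its own. Its signal was 12.33, 12.34 and 12.42 with vehicle and 12.87, 12.82 and 12.89 with purmorphamine. All treated arrays were higher, and the rise was 0.50 (SE 0.05, limma adjusted p = 0.0016). Clec4n encodes Dectin-2, a receptor of fungal mannans that pairs with the Fc receptor gamma chain. Clec4n read 12.28, 12.27 and 12.31 with vehicle and 12.50, 12.58 and 12.55 with purmorphamine. The groups were again apart, by the smallest rise of the called members, 0.26 (SE 0.05, limma adjusted p = 0.016). Its call was lost without vehicle replicate 1 (limma adjusted p = 0.0539), vehicle replicate 2 (0.0586), purmorphamine replicate 2 (0.0509) or purmorphamine replicate 3 (0.0534). Clec5a encodes MDL-1, a myeloid receptor that pairs with DAP12. Its values were 10.17, 10.11 and 10.18 with vehicle and 10.64, 10.54 and 10.61 with purmorphamine. Clec5a rose by 0.44 (SE 0.05, limma adjusted p = 0.0025), with no overlap of the groups.

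Clec1b and Clec4b1 were the other measured activating receptor genes, and both were below background in both groups. Clec1b encodes CLEC-2, the platelet receptor for podoplanin. It read 5.63, 5.79 and 5.74 with vehicle and 5.98, 6.24 and 6.14 with purmorphamine, where 1 of 3 arrays exceeded its limit. Clec1b passed the test with a difference of 0.40 (limma adjusted p = 0.020), and it is given no fold because both groups counted as below background. The call was lost without vehicle replicate 1 (limma adjusted p = 0.0649), vehicle replicate 3 (0.0548), purmorphamine replicate 2 (0.0565) or purmorphamine replicate 3 (0.0669). Of 4 measured platelet and megakaryocyte markers 0 rose and 2 fell: Ppbp by 0.97 and, below background in both groups, Gp6 by 0.38. Itga2b (-0.28) and Gp9 (0.02) did not pass, where 7.18% of all named genes rose and 7.16% fell. Mean levels of the platelet and megakaryocyte list were 7.80 to 7.88 over the vehicle arrays and 7.36 to 7.52 over the purmorphamine arrays. The part of platelet RNA, or of RNA of other cells, in the Clec1b signal was not tested. Podoplanin itself, Pdpn, rose by 0.26 (limma adjusted p = 0.018). Clec4b1, which encodes the activating receptor DCAR, read 4.31 to 4.88 with vehicle and 4.09 to 4.30 with purmorphamine. It differed by -0.39 and did not pass (limma adjusted p = 0.12), except without vehicle replicate 3 (0.026). The related Clec4b2 differed by -0.08.

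Of the 4 DCIR family genes, 3 fell and Clec4a4 did not pass the test. Clec4a2 encodes DCIR1, whose tail holds an inhibitory tyrosine motif. Its signal was 7.64, 7.49 and 7.42 with vehicle and 6.66, 6.59 and 6.48 with purmorphamine. All treated arrays were below all vehicle arrays and still above their background limits. Clec4a2 fell by 0.94 (SE 0.08, 95% interval -1.12 to -0.76, n = 3 per group, limma adjusted p = 6.14e-04). Clec4a1 and Clec4a3 encode the relatives DCIR4 and DCIR3 and were grouped with it by family, not by a motif shown here.

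Clec4a1 gave 7.72, 7.32 and 7.37 with vehicle and 6.02, 6.03 and 6.21 with purmorphamine. It fell by 1.38 in the fit (SE 0.11, limma adjusted p = 6.23e-04), and since all treated arrays lay under their limits the size is a bound: 1.25 log2 units or more, measured against the limit. Clec4a3 gave 9.08, 8.996 and 8.90 with vehicle and 8.53, 8.48 and 8.36 with purmorphamine, with no overlap. It fell by 0.53 (SE 0.07, limma adjusted p = 0.0037). These 3 genes are close paralogs, so a probe may bind transcripts of more than 1 of them, and their falls are uncertain as separate signals. Clec4a4, which encodes DCIR2, was below background in both groups, at 4.15 to 4.81 with vehicle and 4.20 to 4.60 with purmorphamine, and differed by -0.05 (limma adjusted p = 0.91).

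Clec12a encodes MICL, an inhibitory receptor of myeloid cells that binds uric acid crystals. It read 9.57, 9.54 and 9.43 with vehicle and 9.13, 8.99 and 9.05 with purmorphamine. The groups were apart, and Clec12a fell by 0.46 (SE 0.06, limma adjusted p = 0.0045). Its neighbour Clec12b, another inhibitory receptor gene, was below background and differed by 0.06. In all, 6 of 7 measured genes listed as activating receptors rose and 0 fell, with a median difference of 0.44. The 6 include Clec1b, which was below background in both groups. The calls of Clec1b and of Clec4n were each lost in 4 fits that left out 1 array. Clec4b2, a relative of Clec4b1, was placed in no role group and is not among the 7 (difference -0.08). Of the 6 genes of the DCIR family and the Clec12 pair, 0 rose and 4 fell, with a median of -0.49. The medians stand beside -0.01 for all genes tested, and the counts beside 7.18% of all genes rising and 7.16% falling. Among genes with a mean above the limit, 10.9% rose and 10.5% fell. These are counts of genes that partly share cells and gene clusters, not a test of the groups. The role groups were chosen with earlier results of these data known.

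**Figure D2:**
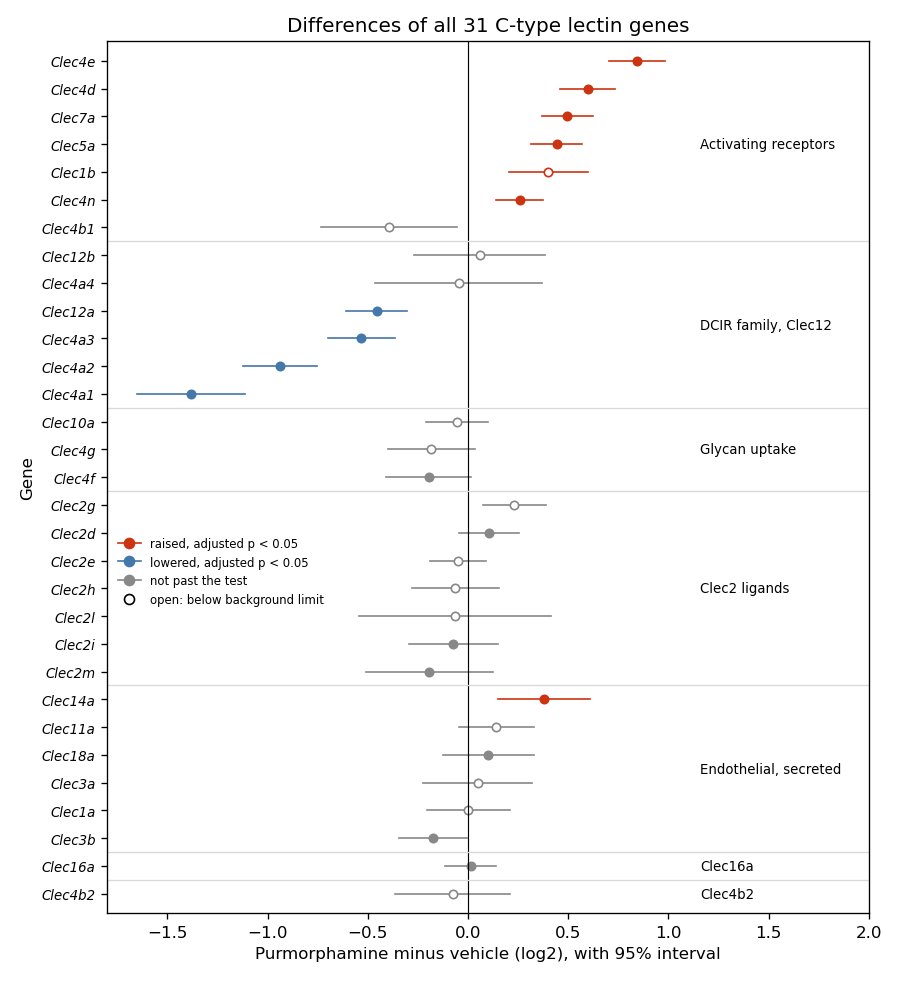
Purmorphamine minus vehicle, in log2 units with 95% intervals from the limma fit, for all 31 members, ordered by role group, with Clec4b2, which has none, at the bottom. Filled points are members above background in at least 1 group, open points are below it in both, red marks rises and blue falls at an adjusted p under 0.05. The called rises lie in the activating group, apart from Clec14a, and the 4 called falls in the DCIR and Clec12 group. Role groups were chosen with earlier results of these data known.

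The remaining role groups held 1 call. Clec14a encodes an endothelial surface protein that binds multimerin 2. It read 6.43, 6.66 and 6.63 with vehicle and 6.93, 7.11 and 6.81 with purmorphamine. The groups did not overlap, and Clec14a rose by 0.38 (SE 0.10, limma adjusted p = 0.044). Among the fits with 1 array left out, this call was kept only without purmorphamine replicate 3 (limma adjusted p = 0.0458). Without vehicle replicate 1, 2 or 3 the adjusted p was 0.115, 0.0709 or 0.0862, and without purmorphamine replicate 1 or 2 it was 0.108 or 0.105. Of 6 endothelial markers, all above background, 2 rose and 0 fell: Cdh5, VE-cadherin, by 0.34 and Pecam1 by 0.30. Among genes with a mean above the limit, 10.9% rose and 10.5% fell. The mean level of the endothelial list was 8.52 to 8.53 over vehicle arrays and 8.65 to 8.70 over purmorphamine arrays. Its part in the Clec14a rise was not tested. The multimerin 2 gene Mmrn2 differed by 0.14 and did not pass (limma adjusted p = 0.41).

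Clec3b encodes tetranectin, a secreted plasminogen-binding protein. It read 6.66, 6.90 and 6.73 with vehicle and 6.62, 6.56 and 6.58 with purmorphamine. The treated arrays were all lower, yet the difference of -0.17 did not pass (limma adjusted p = 0.17). Clec18a read 6.81, 6.78 and 7.13 with vehicle and 7.003, 6.98 and 7.04 with purmorphamine, a difference of 0.10 with overlapping groups. Clec16a read 8.05, 8.08 and 8.11 with vehicle and 8.04, 8.14 and 8.09 with purmorphamine, also overlapping, with a difference of 0.01. Clec16a carries the family's name but encodes an endolysosomal protein of mitophagy without a C-type lectin domain. Clec11a, a secreted growth factor gene, Clec1a and Clec3a were below background and differed by 0.14, 0.003 and 0.05.

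Several Clec2 proteins are ligands of the NKR-P1 receptors of natural killer cells. The Clec2 genes were grouped by name, not by a receptor shown here for each. None of the 7 measured Clec2 genes passed the test, with differences from -0.19 (Clec2m) to 0.23 (Clec2g). Clec2d encodes Clr-b, a widely expressed ligand that restrains natural killer cells through the receptor gene Klrb1b. It was above background, at 7.99, 8.05 and 7.88 with vehicle and 8.03, 8.08 and 8.13 with purmorphamine. The groups overlapped, and Clec2d differed by 0.11 (95% interval -0.04 to 0.25, limma adjusted p = 0.34). Clec2i, which encodes the ligand Clr-g, read 6.54, 6.77 and 6.50 with vehicle and 6.40, 6.61 and 6.58 with purmorphamine. Clec2m read 6.81, 6.77 and 7.04 with vehicle and 6.58, 6.51 and 6.97 with purmorphamine. Both overlapped between the groups. Clec2g was below background with treated arrays all higher (limma adjusted p = 0.064). Klrb1b was below background, as were all 7 measured lymphocyte markers.

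The glycan uptake receptors also gave no call. Clec4f, known from Kupffer cells of the liver, read 6.29, 6.42 and 6.59 with vehicle and 6.14, 6.25 and 6.32 with purmorphamine. The groups overlapped near the background limit. Clec4f differed by -0.20 (limma adjusted p = 0.21), and the galactose receptor gene Clec10a and the sinusoidal endothelial lectin gene Clec4g, both below background, by -0.05 and -0.18. Over all members, the groups did not overlap in 14: 8 were higher on every treated array, where 17.1% of all genes were, and 6 were lower, also against 17.1%. The 3 of these without a call were Clec2g, Clec3b and Clec4b1.

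Of the 31 members, 23 lie on chromosome 6 in the RefSeq gene table, which matched all 31 by gene identifier. There 9 Clec4 genes follow each other without another protein-coding gene between them. In their order, Clec4a1 and Clec4a3 fell, Clec4a4 and Clec4b1 were below background, Clec4a2 fell, Clec4b2 was below background, and Clec4n, Clec4d and Clec4e rose. The falls thus lay on 1 side of Clec4b2 and the rises on the other. Neither flanking gene was called (Necap1, 0.06, and Vmn2r19, -0.01). In the natural killer gene complex on the same chromosome, Clec12a fell, and so did Cd69, an activation marker of lymphocytes with the same fold that was below background (-0.40, limma adjusted p = 0.029). Clec1b rose below background, as given above. Clec7a rose beside its neighbour Olr1, the gene of the oxidized LDL receptor LOX-1, another C-type lectin, which rose by 0.92 (limma adjusted p = 1.84e-04). The autophagy gene Gabarapl1, farther along, rose by 0.58, and Tmem52b, which lies between them, differed by 0.01.

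**Figure D3:**
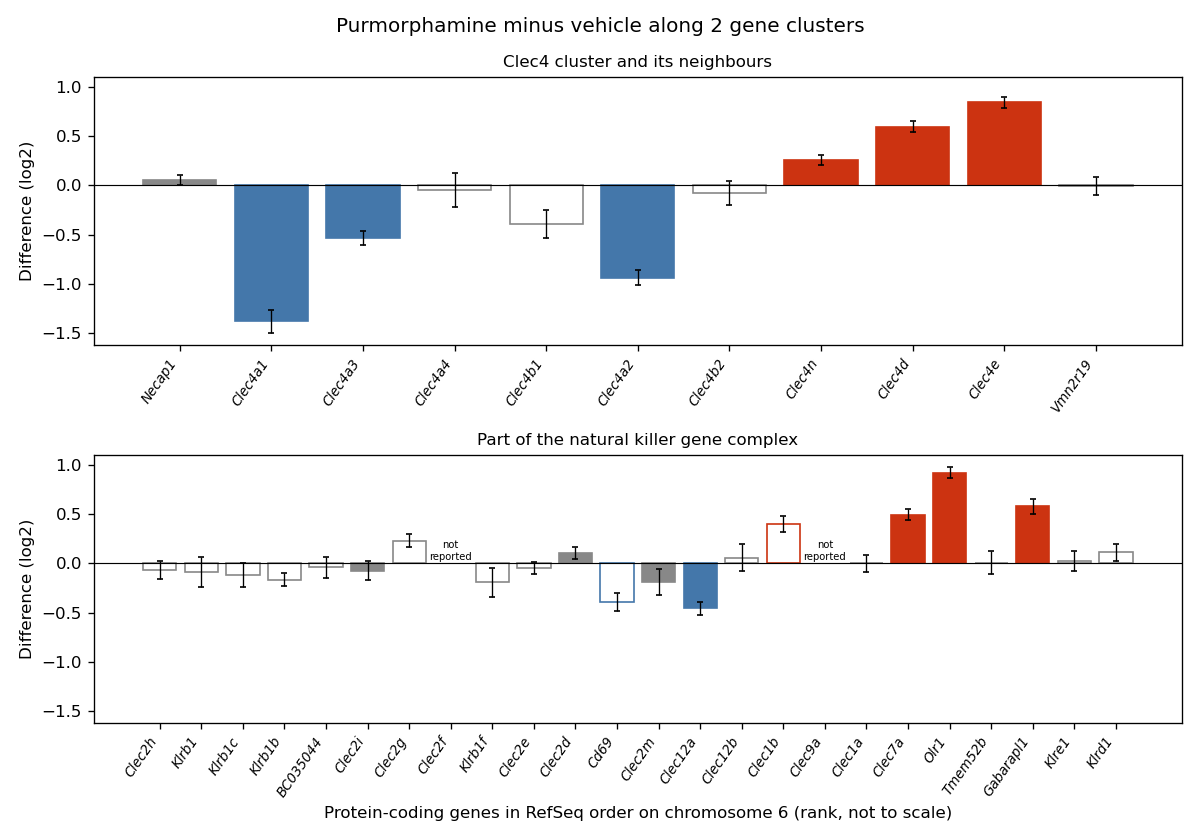
Purmorphamine minus vehicle, in log2 units with SE, for protein-coding genes in their RefSeq order along 2 stretches of chromosome 6. Filled bars are genes above background in at least 1 group, and red and blue mark called rises and falls. In the upper panel falls occupy the left of the Clec4 cluster and the rises of Clec4n, Clec4d and Clec4e the right, and in the lower panel Cd69 (below background) and Clec12a fell, and Clec1b (below background), Clec7a, Olr1 and Gabarapl1 rose. Clec2f and Clec9a are not reported because they have no probe set with a single symbol.

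Start site windows of 300 bases, 250 before and 50 after an annotated start, were found for 25 of the 31 members in the RefSeq promoter table (build GRCm38.p6). These include 6 of the 7 raised and all 4 lowered genes. Both strands were searched for 4 short motifs: AGGAAGT of the macrophage factor PU.1, TGANTCA of AP-1, the E-box CACGTG, and TATAAA of the TATA box. No sites of different motifs overlapped in the members' windows. The windows of a raised and a lowered pair from the Clec4 cluster are shown, since these neighbours moved in opposite directions. Capitals mark motif matches.

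Clec4e (chr6:123289822-123290121, minus strand): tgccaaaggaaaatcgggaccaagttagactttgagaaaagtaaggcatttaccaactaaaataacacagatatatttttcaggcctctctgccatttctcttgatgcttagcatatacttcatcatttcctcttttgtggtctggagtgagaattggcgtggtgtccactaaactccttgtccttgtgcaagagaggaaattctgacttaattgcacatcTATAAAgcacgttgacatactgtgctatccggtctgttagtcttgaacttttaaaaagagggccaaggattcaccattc
Clec4d (chr6:123261857-123262156, plus strand): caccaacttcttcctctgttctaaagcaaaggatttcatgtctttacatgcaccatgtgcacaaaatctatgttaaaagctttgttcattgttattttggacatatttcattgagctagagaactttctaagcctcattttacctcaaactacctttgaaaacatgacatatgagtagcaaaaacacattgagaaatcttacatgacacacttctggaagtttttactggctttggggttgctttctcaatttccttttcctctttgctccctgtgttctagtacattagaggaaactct
Clec4a1 (chr6:122921598-122921897, plus strand): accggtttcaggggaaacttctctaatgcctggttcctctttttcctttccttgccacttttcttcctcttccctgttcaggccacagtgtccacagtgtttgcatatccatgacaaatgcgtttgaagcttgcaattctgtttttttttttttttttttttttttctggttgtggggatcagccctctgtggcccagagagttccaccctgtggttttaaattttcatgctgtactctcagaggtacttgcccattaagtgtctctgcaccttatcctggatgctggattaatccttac
Clec4a2 (chr6:123122440-123122739, plus strand): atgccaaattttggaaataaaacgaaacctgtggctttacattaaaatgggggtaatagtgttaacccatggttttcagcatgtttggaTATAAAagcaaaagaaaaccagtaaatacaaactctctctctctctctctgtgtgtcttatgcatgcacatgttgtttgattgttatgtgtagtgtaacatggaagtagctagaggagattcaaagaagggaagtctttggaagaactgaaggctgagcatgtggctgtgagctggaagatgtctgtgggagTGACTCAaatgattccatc

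The Clec4e window holds a TATAAA that begins at position -29 from the start site, and that of Clec4a2 holds one at -161 and an AP-1 match at 31. The Clec4d and Clec4a1 windows hold no match to the 4 motifs. Among the called members with windows, 6 raised and 4 lowered, the TATA letters were found in 4 raised genes and 1 lowered gene (Clec4a2). The raised were Clec4e, Clec5a (beginning at -209), Clec1b (-195 and -87) and 1 of 2 windows of Clec7a (42). Uncalled Clec2e and Clec4g also held them, and of all 32851 windows 13.6% did. AP-1 letters were found in 0 raised and 2 lowered genes (Clec12a and Clec4a2), and in 7.81% of all windows. They were also found in the uncalled Clec2e, Clec2g, Clec2h and Clec18a. The PU.1 letters (9.35% of windows) and the E-box (7.15%) were found in none of the called members. Uncalled Clec2e held the PU.1 letters. Member counts are per gene and the shares per window, so they are not compared. Matches are letters only, and no match shows nothing about a factor.

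The signalling genes downstream of the activating receptors moved unevenly. Of 23 measured genes of the Syk and CARD9 pathway, all above background, 2 rose and 7 fell, with a median difference of -0.02. Among all genes with a mean above the limit, 10.9% rose and 10.5% fell. Malt1, the paracaspase that acts with CARD9 and Bcl10, rose by 0.90 (limma adjusted p = 1.64e-04). The transcription factor gene Nfatc2 fell by 0.59, the inflammasome adaptor gene Pycard fell by 0.58 and the phospholipase gene Plcg2 fell by 0.38. Singled out after their values were seen, Syk rose by 0.24 (limma adjusted p = 0.043) and Card9 fell by 0.33 (0.0091). The partner chains of the activating receptors did not pass: Fcer1g, the Fc receptor gamma chain, differed by -0.17 (95% interval -0.33 to -0.0028), and Tyrobp, DAP12, by -0.02 (-0.15 to 0.11). Of 10 genes of inhibitory phosphatases and regulators 0 rose and 4 fell. Their differences were -0.77 for Inpp5d (SHIP1), -0.48 for Ptpn22, -0.40 for Ptpn6 (SHP-1) and -0.30 for the inhibitory receptor gene Pirb. SHP-1 is a phosphatase that inhibitory tail motifs such as that of DCIR1 recruit. Ptpn11 (SHP-2), of the same list and singled out after its value was seen, differed by -0.08 and did not pass (limma adjusted p = 0.53).

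Genes of other proteins with the same fold were counted from a list of 46, of which 42 were measured and 20 were above background. Of the 42, 6 rose and 7 fell, with a median of -0.05, where 7.18% of all genes rose and 7.16% fell. Besides Olr1, the endocytic receptor gene Ly75 (DEC-205) rose by 0.73 and the matrix proteoglycan gene Vcan by 0.45. The macrophage mannose receptor gene Mrc1 fell by 0.62. Selp, P-selectin, fell by 0.42 and was singled out after its value was seen.

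Most called members are known from myeloid cells, and myeloid markers were read in the same cultures. Of 13 macrophage and monocyte markers, 11 were above background, 0 rose and 6 fell. The falls include that of Ccr2, which was below background in both groups. Of all named genes 7.18% rose and 7.16% fell, and of those with a mean above the limit 10.9% and 10.5%. Among the macrophage and monocyte markers the changes were as follows. The mean level of the list was 10.43 to 10.48 over vehicle arrays and 10.06 to 10.14 over purmorphamine arrays. The Fc receptor gene Fcgr1 fell by 1.79, the integrin gene Itgam fell by 1.46 and the growth factor receptor gene Csf1r fell by 0.63. Adgre1 of the same list fell by 0.37. The pan-leukocyte gene Ptprc (0.07) and the bright genes Lyz2 (0.05), Cd68 (0.13) and Marco (0.20) missed the threshold. Ptprc was singled out after its value was seen. The rises of the activating receptor genes and the falls of 3 DCIR genes thus stood beside markers that fell and markers that did not pass. Of 6 measured alveolar macrophage markers 1 rose (Itgax, 0.31) and 2 fell, Siglecf (-0.78) and, below background in both groups, Fabp1 (-0.56). In whole-culture RNA, fewer cells of a type and less RNA per cell cannot be told apart, and the part of a change in cell makeup in these results was not tested.

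Of 9 dendritic cell markers, 5 were below background in both groups, among them Flt3 and Xcr1, 0 rose and 1 fell (Irf8, by 0.31). Neutrophil markers were below background in 6 of 8, with 1 rise (Csf3r, 0.43) and 0 falls. Epithelial markers gave 1 rise and 0 falls among 5, all above background. The labelled cell type was represented: all 10 fibroblast markers were above background, of which 8 rose and 1 fell. The counts of these lists stand beside 7.18% of all named genes rising and 7.16% falling. Among genes with a mean above the limit, 10.9% rose and 10.5% fell.

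**Figure D4:**
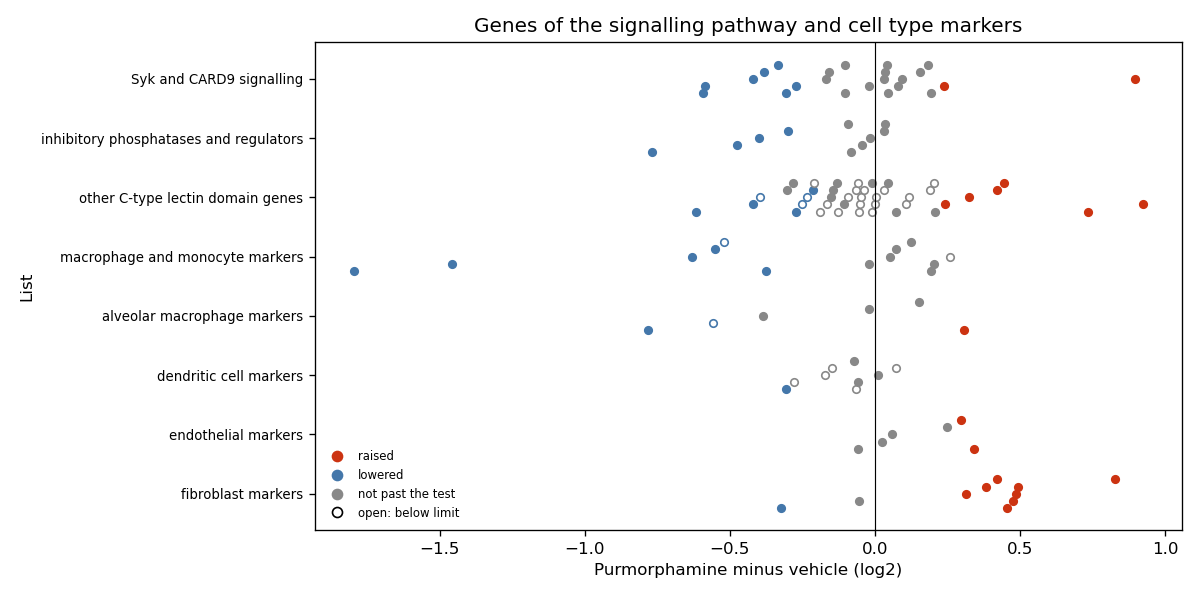
Purmorphamine minus vehicle, in log2 units, for each measured gene of 8 lists: 2 signalling lists, other C-type lectin domain genes and 5 lists of cell type markers. Each point is a gene, red and blue mark called rises and falls, and open points are below background in both groups. Inhibitory phosphatase genes and macrophage markers have falls and no rise, and fibroblast markers mostly rises.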

How the data were processed

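RNA of 6 wells, 1 array each, was amplified from a poly(T) primer with an Affymetrix kit, per the labels' protocols. The submitters' processing notes list oligo, RMA and limma without versions. Deposited by the authors was 1 log2 signal per probe set and array. RMA brings all arrays to 1 distribution and compresses differences of dim genes. Array medians lay between 6.34 and 6.39, and array number limits the precision (median SE 0.07).

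Of 41345 probe sets, 23521 had 1 symbol in the platform annotation, and the highest mean over 6 arrays picked 1 probe set for each of 22180 genes. The difference, purmorphamine minus vehicle, came from a limma 3.58.1 model in R 4.3.3 (lmFit, eBayes) of all 6 arrays that had neither block nor filter. Its 2-sided p-values were adjusted by Benjamini-Hochberg across the 22180 genes. The limma fit was tried on simulated data with independent noise, which tests neither the background limit nor probes that bind several transcripts. All members are named. Of each other list up to 4 genes with the smallest p could be named, and bright ones might be. Others were singled out after their values were seen. Members and lists were chosen with earlier results of these data known. Where all treated arrays lay under the limit, a fall was bounded as the vehicle mean minus the mean of the higher of limit and signal. Such bounds leave out sampling error. Alternatives were other centring, quantile normalization, an offset of 50, a filter on genes of low mean signal, probe set means or single probe sets, a variance trend, weights per array, a block for the replicate number, left-out arrays, other thresholds and other limits. Python 3.11.15 and matplotlib 3.10.9 read sequences and drew plots.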

Additional observations from a re-analysis of the deposited data

How the results depend on the processing

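Of 11 called members, 8 kept their direction and an adjusted p under 0.05 in every alternative fit (Clec4e, Clec4d, Clec7a, Clec5a, Clec4a1, Clec4a2, Clec4a3 and Clec12a), and 3 lost the call in some (Clec4n, Clec1b and Clec14a), with 0 changes of direction. With 1 array left out, 4 to 6 members rose. Requiring a fold of at least 1.5 as well left 2 rises and 2 falls, so that Clec7a, Clec5a, Clec4a3 and Clec12a were also no longer called. Leaving out the genes of lowest mean signal, 7394 in all, removed 12 members, Clec1b among them. Above background, 11 members were counted with the 99th percentile of sensory receptor genes as the limit, against 17, and 21 and 12 with the 90th percentile and the array median.

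Same-numbered arrays deviated together only weakly (correlations of 0.11, 0.02 and 0.10 for numbers 1, 2 and 3), although each array correlated best with its own number. With the replicate number as a block 6 members rose and 4 fell, and Clec14a missed the test at a limma adjusted p of 0.0503.

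Among 20 uncalled members, 9 changed sign in some fit. Clec1a differed by -0.010 after median centring. With 1 array left out, ranges were -0.095 to 0.0063 for Clec10a, -0.081 to 0.18 for Clec12b, -0.014 to 0.038 for Clec16a, -0.044 to 0.095 for Clec1a, -0.13 to 0.012 for Clec2i, -0.30 to 0.081 for Clec2l, -0.028 to 0.17 for Clec3a, -0.19 to 0.14 for Clec4a4 and -0.15 to 0.054 for Clec4b2. Signals near the background limit restrict what could be detected.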

Other observations

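A probe set annotated to 2 symbols, Clec9a and Clec1b, stood outside the rule and was looked at after its values were seen. It read 6.02, 6.10 and 6.11 with vehicle, all under the background limits, and 7.01, 7.39 and 6.91 with purmorphamine, all above them. The limma fit over 25335 annotated probe sets called it higher (adjusted p = 0.0025). Measured against the limits of the vehicle arrays, the signal was at least 1.83-fold higher, or 0.87 log2 units or more. Which of the annotated transcripts gave this signal was not tested, and the Clec1b probe set itself differed by 0.40.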
